A study of Oryctolagus cuniculus with 24 samples.

Results

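IL17A, IL22, IL22RA2 and CCL20 are 4 genes of the IL-17 and IL-22 arm of immunity, and they were followed here in rabbit peripheral blood mononuclear cells (PBMCs). They were found, IL17A and IL22 by RefSeq accession and IL22RA2 and CCL20 by Ensembl gene identifier, among the probes of a 1-colour Agilent array that carries the rabbit transcriptome and an added set of immune genes, and they make up 4 of 28870 genes, with 8 of 42089 probes and 12 of 61657 spots. PBMCs came from 4 adult New Zealand White females, here rabbits 1, 2, 4 and 5. They were mock-stimulated with buffer, stimulated with 1 µg/mL of LPS, a bacterial ligand of Toll-like receptors, or stimulated with a mixture of 10 ng/mL of PMA and 1 µg/mL of ionomycin (PMA-Ionomycin), which bypasses the antigen receptor by activating protein kinase C and releasing calcium. Cells were harvested after 4 h (T4) or 24 h (T24), so that the same 4 animals entered each of the 6 groups and 24 arrays were hybridised in all. All groups shared the same serum-supplemented culture, and the cells were unsorted, so each value is an average over the T cells, B cells, NK cells, monocytes and other cells of a culture, in which fewer cells of a type and less RNA per cell cannot be told apart.

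IL17A encodes the founding cytokine of the IL-17 family, made by Th17 cells, gamma delta T cells and other innate-like lymphocytes, and it acts on epithelial and stromal cells to recruit neutrophils. IL22 encodes an IL-10 family cytokine of the same lymphocytes that acts on epithelial barriers, and IL22RA2 encodes a soluble receptor, the IL-22 binding protein, that neutralises it. CCL20 encodes the chemokine that attracts cells bearing CCR6, among them Th17 cells, B cells and immature dendritic cells.

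The probes are 60-base oligonucleotides, and they are shown because the values of each gene rest on them alone. IL17A had 1 probe with 1 spot, at chr12:41696043-41696102 on the plus strand of the oryCun2 build, with its first base at position 402 of the transcript. Its reading frame opened at the first base ends in a stop codon, in capitals, so it lies at the 3′ end of the coding sequence.
IL17A: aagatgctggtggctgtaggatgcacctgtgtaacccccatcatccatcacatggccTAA
IL22 had 5 probes with 1 spot each, in 2 overlapping sets on the minus strand. Probes 1 and 2 start at positions 370 and 371 of the transcript and lie within chr4:47241315-47242292 and chr4:47241314-47242291. Probes 3, 4 and 5 start at positions 451, 452 and 453, and the first of them lies within chr4:47237903-47241293. Each interval is longer than the probe, 978 bases for the first set and 3391 bases for the second, so each probe spans an exon junction of the transcript. The capitals mark the 59 bases that the first 2 probes share and the 58 bases that the other 3 share, so the 5 probes read 2 stretches of 1 transcript and are not 5 independent measurements.
IL22 probe 1: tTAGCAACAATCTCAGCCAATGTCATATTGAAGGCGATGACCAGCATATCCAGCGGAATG
IL22 probe 2: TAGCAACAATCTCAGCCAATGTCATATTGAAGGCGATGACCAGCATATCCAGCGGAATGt
IL22 probe 3: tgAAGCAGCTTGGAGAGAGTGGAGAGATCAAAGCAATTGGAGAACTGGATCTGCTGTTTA
IL22 probe 4: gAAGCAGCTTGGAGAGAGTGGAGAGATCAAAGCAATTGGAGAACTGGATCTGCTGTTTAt
IL22 probe 5: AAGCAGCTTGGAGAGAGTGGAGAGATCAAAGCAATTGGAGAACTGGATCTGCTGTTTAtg
IL22RA2 and CCL20 each had 1 probe with 3 spots, with no genome position in the files and an Ensembl gene identifier in place of a symbol. Their sequences are given in lower case throughout.
IL22RA2: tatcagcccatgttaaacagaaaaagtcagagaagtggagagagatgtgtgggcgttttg
CCL20: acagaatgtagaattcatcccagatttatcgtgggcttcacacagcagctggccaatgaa
No probe of another gene on the array shared a run of 20 bases with any of the 8 probes.

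Levels are log2 median signals relative to the median of the array, on a scale where 0 is the median spot, and a gene was taken as measured on an array where the scanner software called more than 1 in 2 of its probes well above background. Between 51.4 and 62.3% of spots were well above background on an array, and the array medians lay between 59 and 102.5 units of brightness, so a low level carries mostly background. Differences between groups (FC, as log2 or fold) come from a limma model across all genes with Benjamini-Hochberg adjusted p-values, and a gene was differentially expressed (DE) at an adjusted p under 0.05. The median signal holds its local background, which shrinks fold changes of dim genes. Where no array of a group measured a gene, the fold is a lower limit, written as at least N-fold. The 3 slides held 8 arrays each and several groups each.

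IL17A rose after PMA-Ionomycin at both times. At T4 with PMA-Ionomycin its level was 3.33, 4.66, 4.53 and 2.27 in rabbits 1, 2, 4 and 5, with a mean of 3.70 ± 1.13 (SD, n = 4). At T4 in mock-stimulated cells it was -0.56, -0.89, -0.55 and -0.59 in the same order, with a mean of -0.65 ± 0.16 (SD, n = 4), and no array measured it. The groups did not overlap, and the raw median signals behind the stimulated values were 740.5, 1671.5, 1896 and 391 units against 39 to 57 units in mock. The log2 FC was 4.35 (SE 0.35, limma adjusted p = 3.4e-09), at least 20.4-fold, and it lay above 0 in 4 of 4 rabbits, between 2.86 in rabbit 5 and 5.56 in rabbit 2. In this comparison 22.8% of genes were DE. Within the 3 slides the difference was 2.83 to 5.19. With the background-subtracted processed signal it was 6.68.

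At T24 with PMA-Ionomycin IL17A was still up-regulated, at a lower level. The 4 rabbits read 1.81, 1.65, 1.46 and 0.36, with a mean of 1.32 ± 0.66 (SD, n = 4), against -0.97, -0.77, -0.79 and -1.16 in mock, with a mean of -0.92 ± 0.18 (SD, n = 4) and no array that measured it. Rabbit 5 was the lowest of the stimulated rabbits at both times. The log2 FC was 2.24 (SE 0.35, adjusted p = 1.8e-05), at least 4.66-fold, against 33.6% of genes DE in this comparison. The FC at T24 was lower than that at T4 by 2.11 on the log2 scale (SE 0.50, adjusted p = 0.0029), with the difference negative in 4 of 4 rabbits and 22.5% of genes DE for this interaction of stimulation and time. The mock levels in it were under background at both times, so it sets 2 lower limits against each other and its size is not exact. It was of the same size with the processed signal, -2.11, but the adjusted p was 0.0663 there. Between T4 and T24 the level in PMA-Ionomycin itself, measured on all 8 arrays, fell by 2.38 on the log2 scale (adjusted p = 8.6e-06, 33.7% of genes DE).

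**Figure D1:**
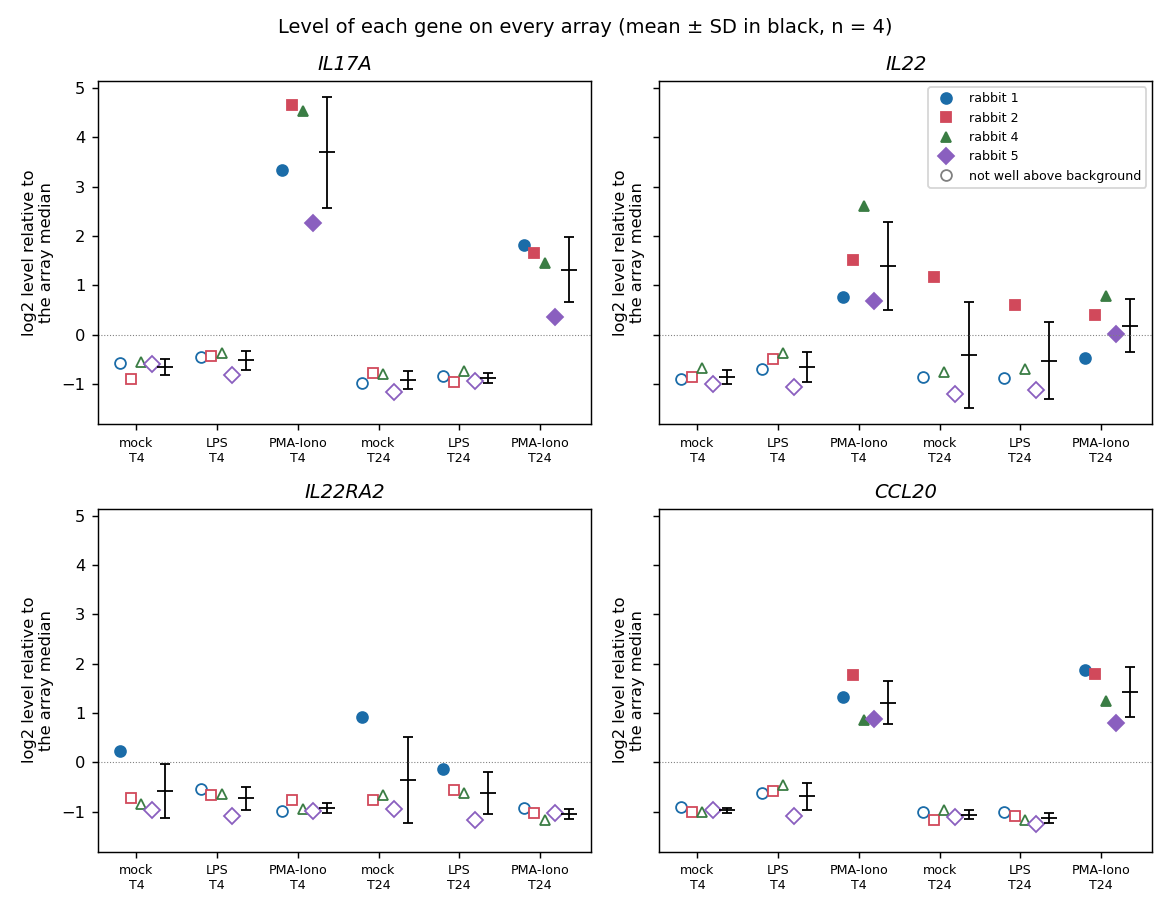
Log2 level of each gene relative to the array median (y axis) in the 6 groups (x axis), with 1 symbol per rabbit, hollow where the gene was not well above background on that array, and the mean ± SD in black (n = 4). IL17A and CCL20 were measured on the 8 PMA-Ionomycin arrays and on no other, IL22 also in rabbit 2 at T24 without PMA-Ionomycin, and IL22RA2 on 3 arrays of rabbit 1.

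IL22 rose after PMA-Ionomycin at T4, and at T24 its FC did not pass the test. At T4 its level with PMA-Ionomycin was 0.77, 1.51, 2.61 and 0.68 in rabbits 1, 2, 4 and 5, with a mean of 1.39 ± 0.89 (SD, n = 4). In mock at T4 it was -0.90, -0.85, -0.67 and -0.99, with a mean of -0.85 ± 0.14 (SD, n = 4), and no array measured it. The groups did not overlap, with rabbit 4 the highest of the stimulated rabbits. The log2 FC was 2.25 (SE 0.45, adjusted p = 0.00052), at least 4.61-fold and above 0 in 4 of 4 rabbits. Each of the 5 probes gave a log2 FC between 2.11 and 2.40. Within the 3 slides the FC was 1.47 to 3.05.

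At T24 the IL22 arrays overlapped, since rabbit 2 held IL22 signal without PMA-Ionomycin. With PMA-Ionomycin the level was -0.47, 0.39, 0.78 and 0.02 in rabbits 1, 2, 4 and 5, with a mean of 0.18 ± 0.53 (SD, n = 4), measured on all 4 arrays although in rabbit 1 by 3 of 5 probes. In mock it was -0.87, 1.17, -0.76 and -1.21, with a mean of -0.42 ± 1.08 (SD, n = 4), and 1 array, that of rabbit 2, measured it. In 3 rabbits the stimulated culture was the higher one and in rabbit 2 the mock culture was, by 0.78 on the log2 scale. The log2 FC of 0.60 (SE 0.45, adjusted p = 0.384, 95% CI -0.33 to 1.53) did not pass the threshold. Without rabbit 2 it was 1.06 (adjusted p = 0.0595).

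Whether the response of IL22 differed between the times depended on the model. The FC at T24 was lower than at T4 by 1.65 on the log2 scale (SE 0.64, adjusted p = 0.0674), negative in 4 of 4 rabbits, with mock levels under background on 7 of 8 arrays. With the rabbit as a replicate block in the same model the adjusted p was 0.0134, and without rabbit 2 the difference was -1.15 (adjusted p = 0.21). Between T4 and T24 the level in PMA-Ionomycin fell by 1.21 on the log2 scale (adjusted p = 0.0402). That call was lost without rabbit 1 (log2 FC -1.20, adjusted p = 0.12) and without rabbit 4 (log2 FC -1.01, adjusted p = 0.173).

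The 5 IL22 probes gave the same picture of rabbit 2. Its mock culture at T24 read between 0.89 and 1.42 over the 5 probes, with 5 of 5 well above background, and its LPS culture at T24 read between 0.45 and 0.80, again with 5 of 5. In its mock culture at T4, 1 of 5 probes was well above background and the gene's level was -0.85. The other 3 rabbits had 0 or 1 of 5 probes above background in mock at T24 and 0 to 2 of 5 with LPS at T24. The 2 arrays of rabbit 2 came from different slides.

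**Figure D2:**
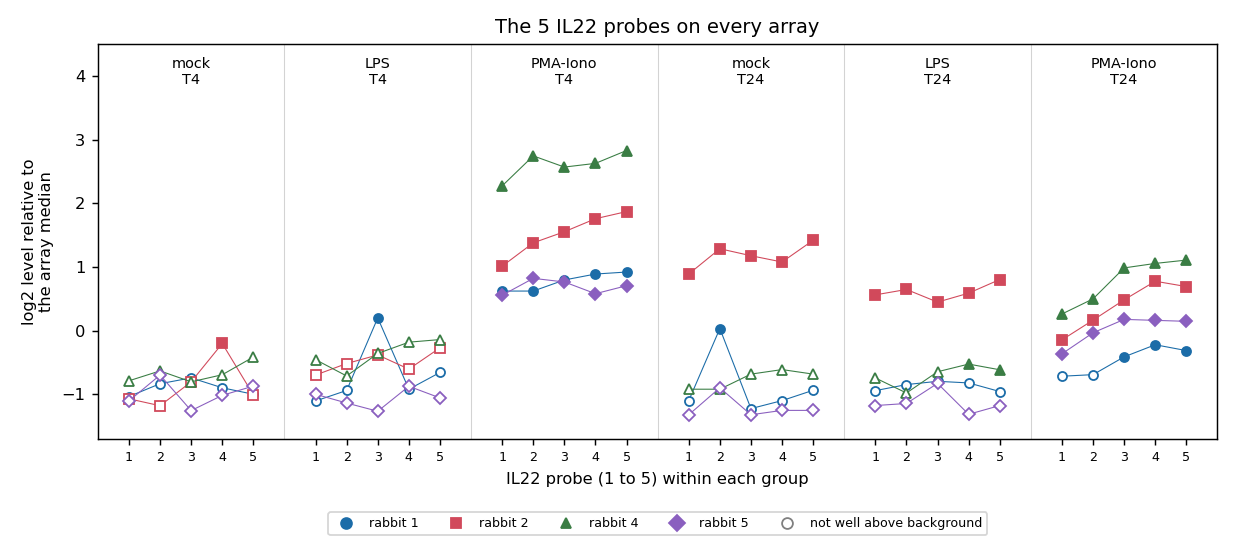
Log2 level relative to the array median (y axis) of the 5 overlapping IL22 probes (x axis, numbered 1 to 5 within each of the 6 groups), with 1 line and symbol per rabbit and hollow symbols where the probe was not well above background. Rabbit 2 stood above the other rabbits in mock and LPS at T24 with 5 of 5 probes well above background.

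IL22RA2 was near or under background on most arrays, and no stimulation changed it at the threshold. It was measured on 3 of 24 arrays, all from rabbit 1. In mock it was 0.23, -0.72, -0.84 and -0.97 in rabbits 1, 2, 4 and 5 at T4, and 0.93, -0.77, -0.65 and -0.94 at T24. With PMA-Ionomycin no array measured it, with levels of -0.99, -0.76, -0.94 and -0.99 at T4 and of -0.92, -1.03, -1.17 and -1.03 at T24. Rabbit 1 was therefore the only rabbit with a measured mock level, and it was not measured after PMA-Ionomycin. The difference at T24 was -0.68 (SE 0.30, adjusted p = 0.0958), with 4 of 4 rabbits lower, but without rabbit 1 it was -0.29 (adjusted p = 0.257). With the rabbit as a replicate block its adjusted p was 0.0231. At T4 the difference was -0.34 (SE 0.30, adjusted p = 0.557), and without rabbit 1 it was -0.05.

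CCL20 rose after PMA-Ionomycin at both times. At T4 its level was 1.32, 1.78, 0.86 and 0.87 in rabbits 1, 2, 4 and 5, with a mean of 1.21 ± 0.43 (SD, n = 4), and in mock it was -0.893, -0.998, -0.999 and -0.971, with a mean of -0.97 ± 0.05 (SD, n = 4). At T24 it was 1.88, 1.79, 1.25 and 0.79, with a mean of 1.43 ± 0.51 (SD, n = 4), against -0.9996, -1.16, -0.95 and -1.11 in mock, with a mean of -1.06 ± 0.10 (SD, n = 4). All 8 stimulated arrays measured it and no mock array did, so that the groups did not overlap at either time. The log2 FC was 2.17 at T4 (SE 0.20, adjusted p = 2.7e-08), at least 4.19-fold. At T24 it was 2.48 (SE 0.20, adjusted p = 9.7e-10), at least 5.13-fold. The FC was above 0 in 4 of 4 rabbits at both times, and with the processed signal it was 5.00 and 5.29.

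The response of CCL20 did not differ detectably between the times. The FC at T24 minus that at T4 was 0.31 on the log2 scale (SE 0.29, adjusted p = 0.571, 95% CI -0.28 to 0.91), again with mock levels under background at both times, and the level in PMA-Ionomycin differed between the times by 0.22 (adjusted p = 0.419). IL17A and IL22 had negative values of this interaction and CCL20 a positive one, and a test between genes was not made.

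After LPS none of the 4 genes was DE at either time. At T4, 1.03% of all genes were DE and 0 of 4 members, also at an unadjusted p under 0.05, with limma adjusted p-values between 0.574 and 0.885. At T24, 1.22% were DE and 0 of 4 members, again also without adjustment, with adjusted p-values between 0.904 and 0.996. None was DE for the interaction of LPS and time either, where 1.95% of genes were. No LPS array measured IL17A or CCL20. IL17A read between -0.81 and -0.37 at T4 and between -0.96 and -0.74 at T24, and CCL20 between -1.08 and -0.46 at T4 and between -1.25 and -1.004 at T24. IL22 had 1 measured LPS array, rabbit 2 at T24 with 0.61, and IL22RA2 had 1, rabbit 1 at T24 with -0.14. These levels give no fold in either direction, and a rise that stayed under the background would not have been seen.

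**Figure D3:**
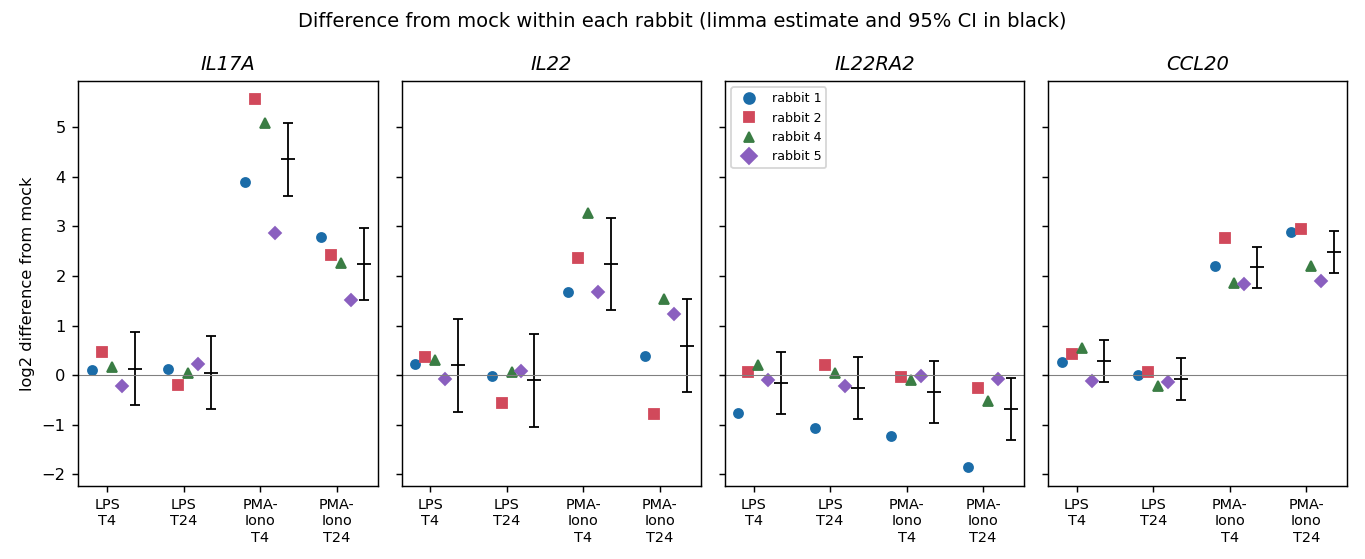
Log2 difference of each stimulated culture from the mock culture of the same rabbit and time (y axis) for LPS and PMA-Ionomycin at T4 and T24 (x axis), with 1 symbol per rabbit and the limma estimate with its 95% CI in black. IL17A and CCL20 lay above 0 in all 4 rabbits at both times of PMA-Ionomycin, IL22 at T4, while the LPS differences ran from -1.07, in rabbit 1 for IL22RA2 at T24, to 0.54, in rabbit 4 for CCL20 at T4.

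Set against LPS, PMA-Ionomycin cultures held more IL17A and CCL20 at both times and more IL22 at T4. IL17A was higher by at least 18.6-fold at T4 (log2 FC 4.22, adjusted p = 4.9e-09, 26.7% of genes DE) and by at least 4.47-fold at T24 (log2 FC 2.19, adjusted p = 2.1e-05, 36.1% of genes DE). CCL20 was higher by at least 3.66-fold at T4 (adjusted p = 1.9e-07) and by at least 5.31-fold at T24 (adjusted p = 5.7e-10). IL22 was higher by at least 4.13-fold at T4 (adjusted p = 0.0011), and at T24 its log2 FC was 0.70 (adjusted p = 0.269). IL22RA2 was not DE at either time (adjusted p = 0.732 and 0.347). These comparisons share the PMA-Ionomycin arrays with those against mock.

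In culture without a stimulus, none of the 4 genes was DE between T4 and T24 (adjusted p-values of 0.623 to 0.832), against 12.5% of all genes, and 0 of 4 had an unadjusted p under 0.05. In LPS none was DE between the times, against 37.6% of genes, with an unadjusted p of 0.04 and an adjusted p of 0.0852 for CCL20, whose levels were under background on all 8 arrays. The levels of each gene thus fell into an order with few steps. For IL17A, PMA-Ionomycin at T4 stood above PMA-Ionomycin at T24, which stood above the other 4 groups, whose levels were all under background and have no order among them. For CCL20 the 2 PMA-Ionomycin groups did not differ beyond their spread and both stood above the other 4. For IL22, PMA-Ionomycin at T4 stood above mock and LPS at T4. It overlapped with mock at T24, where rabbit 2 at 1.17 was above rabbits 1 and 5 of PMA-Ionomycin at T4 (0.77 and 0.68), a pair of groups that was not tested, and its difference from PMA-Ionomycin at T24 depended on single rabbits. PMA-Ionomycin at T24 did not differ from mock or LPS at T24 beyond the spread.

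The rest of the pathway was taken from fixed lists of genes. Of 6 listed IL-17 ligands 3 were found, and IL17A was the only DE member at T4 and T24 of PMA-Ionomycin, while IL17B had log2 FCs of 0.38 and -0.16 and IL25, a ligand of Th2 immunity, of 0.03 and 0.14. IL17F, the closest relative of IL17A, was not analysed here. Of 12 listed IL-10 family ligands and receptors 11 were found, IL22 and IL22RA2 included. After PMA-Ionomycin 2 were up-regulated and 1 down-regulated at T4, and 1 up-regulated and 2 down-regulated at T24, with a median log2 FC of 0.03 and -0.03 against 0.05 and 0.03 over all genes. These counts lie near the share of all genes DE or below it, 22.8% at T4 and 33.6% at T24. IL10, the anti-inflammatory cytokine of the family, had the largest log2 FC at both times (5.13, adjusted p = 2e-06, and 1.94, adjusted p = 0.0222), and IL10RA, its receptor, the smallest at T4 (-1.02). After LPS the 1 DE gene of this list was IL10 at T24 (log2 FC 4.12, adjusted p = 0.00081). IL26, a neighbour of IL22 in the family, was under background on all 24 arrays.

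Those receptors of these ligands that were DE after PMA-Ionomycin were lower, and their number was no larger than the share of all genes DE would give for the IL-17 receptors, 22.8% at T4 and 33.6% at T24. IL17RA, the shared chain of the IL-17 receptors, was the 1 of 5 found IL-17 receptors that was DE after PMA-Ionomycin, with a log2 FC of -1.27 at T4 (SE 0.16, adjusted p = 1.4e-06) and -2.05 at T24 (SE 0.16, adjusted p = 3.2e-10). It was also lower after LPS at T4 (log2 FC -0.88, adjusted p = 0.0208). IL17RC, its partner for IL-17A, was measured on 2 of 24 arrays. IL10RB, the shared chain of the IL-22 and IL-10 receptors, had a log2 FC of -0.72 at T4 (adjusted p = 0.0956). At T24 it was lower than in mock (log2 FC -1.88, adjusted p = 2e-05). Its mean level with PMA-Ionomycin was 1.11 at T4 and 1.25 at T24, against 1.83 and 3.12 in mock. The larger difference at T24 thus came with a higher mock level. IL22RA1, the specific chain of the IL-22 receptor on epithelial cells, was not DE, with log2 FCs of -0.14 and -0.24. CCR6, the receptor of CCL20, fell at both times (log2 FC -1.03, adjusted p = 5.9e-05, and -1.25, adjusted p = 2.2e-06), from a level of 0.58 ± 0.16 in mock to -0.46 ± 0.13 with PMA-Ionomycin at T4 (SD, n = 4). CCL20 and its receptor thus moved in opposite directions on the same arrays.

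Among the cytokines that drive Th17 cells, IL23A rose after LPS and fell after PMA-Ionomycin at both times, while IL6 was higher than in mock after both stimuli at T24. Of 14 listed inducing cytokines and receptors 12 were found. After LPS 1 was up-regulated at T4, and 4 were up-regulated and 1 down-regulated at T24, where 1.22% of all genes were DE and the median log2 FC of the list was 0.10 against -0.03 over all genes. After PMA-Ionomycin 3 were up-regulated and 2 down-regulated at T4 (22.8% of all genes DE), and 1 up-regulated and 6 down-regulated at T24 (33.6% of all genes DE), with medians of 0.10 and -0.48 against 0.05 and 0.03 over all genes. IL23A, the specific chain of IL-23, which maintains Th17 cells, rose after LPS at T4 (log2 FC 2.28, adjusted p = 0.0397) and T24 (log2 FC 3.70, adjusted p = 0.00021). After PMA-Ionomycin it fell at T4 (log2 FC -3.07, adjusted p = 7.4e-05) and T24 (log2 FC -3.01, adjusted p = 4.7e-05), from 3.95 ± 1.23 in mock to 0.88 ± 0.37 at T4 (SD, n = 4). IL23R, its receptor on lymphocytes, was measured on the 4 LPS arrays at T24 and on no other array, at least 1.72-fold above mock there (adjusted p = 0.0093). The PMA-Ionomycin groups, the only ones with arrays that measured IL17A, had the lowest group means of IL23A. The arrays of a group share their stimulus, and a link between the genes was not tested.

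Named after their values were seen, IL21, a cytokine of activated CD4 T cells, rose at T4 of PMA-Ionomycin by at least 4.86-fold (adjusted p = 2.3e-08) and had a log2 FC of 0.55 at T24 (adjusted p = 0.0535), and its FC also differed between the times (-1.77, adjusted p = 0.00011). IL6, another inducer of Th17 cells, was higher than in mock after PMA-Ionomycin at both times (log2 FC 2.42, adjusted p = 0.0157, and 2.16, adjusted p = 0.0221). With LPS it was higher than in mock at T24 (log2 FC 4.73, adjusted p = 0.0006). Its mean level in mock was 5.39 at T4 and 2.42 at T24, against 7.81 and 4.58 with PMA-Ionomycin and 7.94 and 7.15 with LPS. IL1B at T24 was higher than in mock with LPS (log2 FC 4.16, adjusted p = 0.0043) and lower with PMA-Ionomycin (log2 FC -3.40, adjusted p = 0.001). Its mean level in mock was 9.25 at T4 and 5.445 at T24 (SD 2.53), against 8.785 and 9.61 with LPS. The IL1B difference after LPS at T24 thus came with a lower mock level.

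Among 10 found of 14 listed Th17 transcription factors, PMA-Ionomycin raised 5 and lowered none at T4, with a median log2 FC of 1.07 against 0.05 over all genes, and raised 3 and lowered 2 at T24, with a median of -0.06 against 0.03. Of all genes 22.8% were DE at T4 and 33.6% at T24. BATF, an AP-1 factor of Th17 differentiation, rose at both times (log2 FC 3.12, adjusted p = 1.5e-08, and 2.91, adjusted p = 1.2e-08). IRF4, its partner on DNA, rose by 2.07 at T4 (adjusted p = 1.9e-07) and by 0.57 at T24 (adjusted p = 0.048) on the log2 scale. AHR, the ligand-activated factor on which IL22 expression depends in mice, rose by 2.11 (adjusted p = 3.7e-08) and by 1.06 (adjusted p = 0.00018). The FC of IRF4 and that of AHR were lower at T24 than at T4 (-1.49, adjusted p = 0.00085, and -1.05, adjusted p = 0.0082), as that of IL17A was. For this interaction 5 of the 10 factors were called lower and none higher, against 22.5% of all genes DE. A link to IL17A was not tested.

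RORA, a nuclear receptor that takes part in Th17 differentiation, had a log2 FC of 0.53 at T4 (adjusted p = 0.362) and fell at T24 (log2 FC -1.18, adjusted p = 0.0101). STAT3, the factor downstream of IL-6 and IL-23, was not DE (log2 FC 0.30 and 0.28). None of the 10 factors was DE after LPS at either time.

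**Figure D4:**
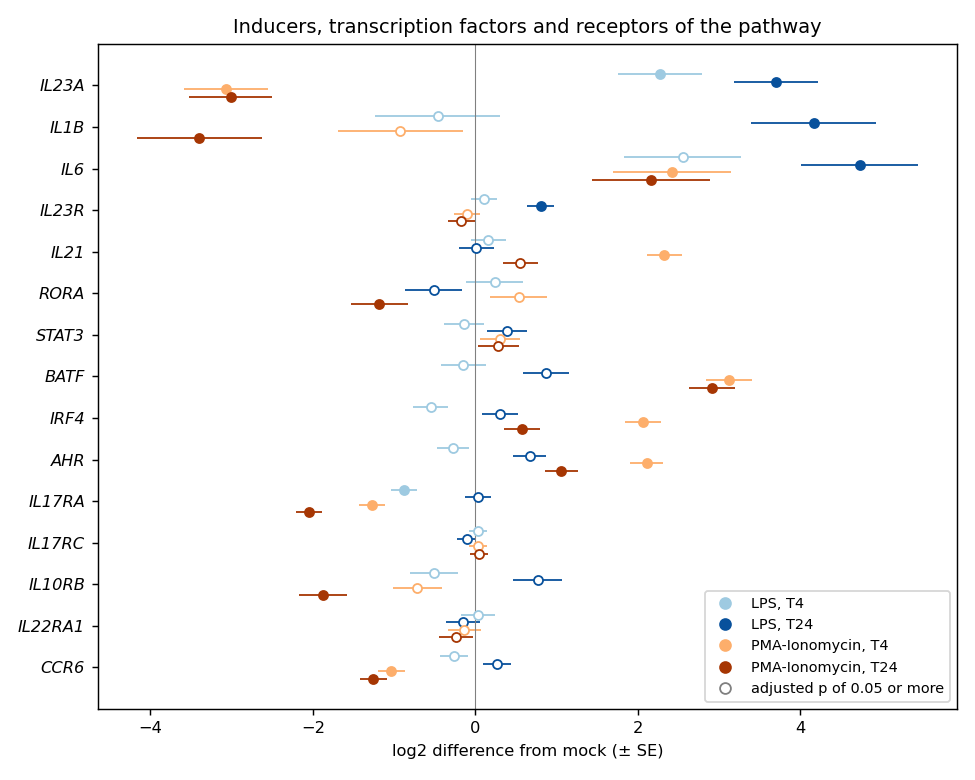
Log2 difference from mock (x axis, ± SE from limma) for named inducers, transcription factors and receptors of the pathway (y axis), by stimulus and time in colour, filled where the adjusted p was under 0.05. IL23A moved to opposite sides after LPS and PMA-Ionomycin, BATF, IRF4 and AHR rose with PMA-Ionomycin, and CCR6 and IL17RA fell with PMA-Ionomycin.

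Known targets of IL-17 and IL-22 signalling included genes that rose and genes that fell after PMA-Ionomycin, and after LPS those called at T24 were all higher. Of 27 listed targets 18 were found, CCL20 among them. After PMA-Ionomycin 8 were up-regulated and 2 down-regulated at T4, and 5 up-regulated and 3 down-regulated at T24, with medians of 0.77 and 0.05 against 0.05 and 0.03 over all genes and 22.8% and 33.6% of all genes DE. CSF2, the gene of GM-CSF, which T cells also make themselves, had the largest log2 FC at both times (7.88, adjusted p = 5.8e-12, and 5.92, adjusted p = 1.4e-10). S100A8, a calcium-binding protein abundant in myeloid cells, had the smallest (-2.40, adjusted p = 0.0331, and -7.14, adjusted p = 1.6e-07). After LPS 5 of the 18 targets were up-regulated at T24, where 1.22% of all genes were DE, and the median log2 FC of the list was 1.84 against -0.03 over all genes. IL6 had the largest log2 FC there. IL17A was under background on these arrays, where a small rise would not be seen, and a link of these targets to it was not tested. At T4 of LPS the median was 0.33 against 0.06. Among 9 found of 14 listed signalling genes of the IL-17 receptor, 5 were up-regulated and 1 down-regulated at T4 of PMA-Ionomycin, and 2 up-regulated and 4 down-regulated at T24, against 22.8% and 33.6% of all genes DE, with medians of 0.45 and -0.14. TRAF5, an adaptor of receptor signalling, had the largest log2 FC (2.21, adjusted p = 3.7e-08, and 1.87, adjusted p = 1.5e-07). The smallest was that of USP25, a deubiquitinase, at T4 (-0.67) and that of NFKBIZ, a nuclear IκB protein, at T24 (-1.82), both DE. After LPS the 1 DE gene of this list was TRAF3IP2, which encodes the adaptor Act1 of the IL-17 receptor, at T24 (log2 FC 1.53).

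Monocyte markers were lower in the PMA-Ionomycin groups in which IL17A, IL22 and CCL20 rose, while T cell markers were called at a share near that of all genes, 22.8% at T4 and 33.6% at T24. Of 11 found T cell markers of 16 listed, 9 were well above background on all mock arrays at T4, and PMA-Ionomycin raised 1 and lowered 1 at T4 and raised 1 and lowered 3 at T24, with median log2 FCs of -0.06 and -0.04. Their mean level per array was 0.59 to 0.99 in mock and 0.53 to 0.87 with PMA-Ionomycin at T4, and 0.39 to 0.86 against 0.51 to 0.65 at T24. The CD3 chain genes were not analysed here. Of 10 found monocyte markers of 15 listed, PMA-Ionomycin lowered 4 at T4 and 9 at T24 and raised none, with median log2 FCs of -0.49 and -2.60. Their mean level per array was 1.43 to 2.37 in mock against 0.96 to 1.38 at T4, and 3.07 to 3.84 against 0.96 to 1.35 at T24. CD14, the monocyte co-receptor for LPS, fell by 3.005 at T4 (adjusted p = 3.3e-07) and by 3.27 at T24 (adjusted p = 3.2e-08) on the log2 scale, and it was well above background on all 24 arrays. Of 6 found markers of Th17 and innate-like T cells of 11 listed, CCR6 was the 1 called lower at both times, none rose, and 3 were well above background on no array of the mock and PMA-Ionomycin groups at either time. Of 6 found B cell markers, 1 was called higher and 3 lower at each time, with medians of -1.22 and -0.44, and of 3 found NK cell markers 1 was called lower at T4, and 2 higher and 1 lower at T24. Of 5 found platelet markers 4 were called lower at T4 (median log2 FC -0.99) and 1 higher at T24 (0.06). Of 6 found neutrophil markers 1 was called lower at T4 (median -0.24) and 3 at T24 (median -0.997). Of 7 found dendritic cell markers 2 were called higher at T4 (median -0.0028) and 3 lower at T24 (median -0.54), and of 5 found epithelial and keratinocyte markers 1 was called higher and 1 lower at T4 and 2 lower at T24. After LPS, 3 of the 10 found monocyte markers were called lower at T4 (median log2 FC -0.75) and 2 at T24 (median -0.12), and none higher. Of the 6 found neutrophil markers none was called at T4, and 1 was called higher and 2 lower at T24. No T cell marker was called after LPS. Of all genes 1.03% were DE after LPS at T4 and 1.22% at T24. The part of these markers in the results above was not tested.

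Over the 24 arrays and 6277 named genes measured on all arrays of at least 1 group, the 5 genes whose level followed that of IL17A most closely were TBX3, TGM2, MMP10, AREG and ASRGL1, with Pearson correlations of 0.979, 0.978, 0.958, 0.954 and 0.954. TBX3, a T-box factor, read 1.94 ± 0.30 at T4 and 0.35 ± 0.17 at T24 with PMA-Ionomycin and between -0.97 and -0.74 in the means of the other groups, the same shape as IL17A. AREG encodes the growth factor amphiregulin and MMP10 a stromelysin. For CCL20 they were BRIX1, LTV1, ZNHIT6, TAC1 and NAA15, with correlations of 0.958 to 0.963, and the first 3 serve ribosome or small nucleolar particle assembly. BRIX1 read 6.04 ± 0.15 and 6.09 ± 0.19 at T4 and T24 of PMA-Ionomycin, against means of 4.07 to 4.58 elsewhere. For IL22 the correlations were lower, 0.821 for RIOK1, 0.805 for EGR2 and TBX3, 0.794 for NR4A1 and 0.791 for CD200R1. For IL22RA2 they were 0.741 for PTK7, 0.733 for AVP and LGALS3BP, 0.727 for NECTIN1 and 0.695 for SLC5A2. Among the members the correlation was 0.867 between IL17A and CCL20, 0.798 between IL17A and IL22 and 0.616 between IL22 and CCL20. The arrays share their stimuli and animals, so the coefficients of IL17A, IL22 and CCL20 describe the pattern of group means more than any link between genes. The group means of IL22RA2 ran only from -1.04 to -0.36, and only arrays of rabbit 1 measured it. Its coefficients therefore rest on levels that were mostly near or under background.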

How the data were processed

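PBMC cultures of rabbits 1, 2, 4 and 5 were each measured on an array. The authors deposited scanner output of Agilent Feature Extraction 10.7.3.1 (submitters' processing notes), holding spot intensities without scaling across arrays. They also deposited log2 values in a table, equal to the log2 median signal less 1 constant for each array. Here the median-signal intensity was log2-transformed and centred on the array median, as in the authors' methods, outlier-flagged spots were left out, and spots were averaged per probe and probes per gene. Probes were named by accession, gene number or gene name through the RefSeq gene table, and CCL20 and IL22RA2 through Ensembl identifiers of the study's added gene set. A mean per group was fitted with limma 3.58.1 in R 4.3.3 over all 24 arrays and 28870 genes, for 11 comparisons, with Benjamini-Hochberg adjustment, and tested on simulated data. The lower limit of a fold used, per array, the higher of the probe's level and the lowest level well above background. The same animals gave every group. Deviations of arrays of the same rabbit correlated (median r 0.228 over 60 pairs against -0.07 over 180 pairs of different rabbits), so rabbit was a block in an alternative. Further settings tried were the processed signal divided by the 75th percentile of its array, quantile normalization, normexp (offset 50) before it, the deposited table, a filter on dim probes, outlier spots kept, the compared arrays alone, slide as a block, a trended and robust prior, single probes, and leaving out each rabbit. The number of arrays limits the precision. The genes named are the 4 members, named ligands, receptors and regulators of the lists (1 of them is not reported here), the largest and smallest changes of a list, and the 5 closest patterns. Members and lists were chosen with earlier results of these data known. Figures were drawn with matplotlib 3.10.9.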

Additional observations from a re-analysis of the deposited data

Results flagged for a closer look

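IL17A differed between the times of PMA-Ionomycin. The FC at T24 minus that at T4 was -2.107 on the log2 scale, a difference past the threshold of its own test, and it was negative in 4 of 4 rabbits. The mock levels were under background at both times, so its size is not exact. Among 24 groups of 4 arrays (4 genes in 6 groups), 2 held an array whose gap to its nearest neighbour, divided by the range of the group, was above the critical value of Dixon's test, which chance passes in about 1 group of 20. IL22RA2 in mock at T24 had a ratio of 0.845, from rabbit 1 at 0.93 against -0.65 to -0.94 in the others. IL17A in mock at T4 had a ratio of 0.868, from rabbit 2 at -0.89 against -0.59 to -0.55, all under background. The high IL22 level of rabbit 2 in mock at T24 had a ratio of 0.813 and did not pass.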

How the results depend on the processing

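No called difference of the 4 genes changed direction under any alternative that could give a value. After PMA-Ionomycin against mock, IL17A at T4 and T24, CCL20 at T4 and T24 and IL22 at T4 passed the threshold under each alternative, with log2 FCs of 3.84 to 6.68, 1.57 to 4.56, 1.75 to 5.00, 1.76 to 5.29 and 1.84 to 4.83, highest with the processed signal. The IL17A difference between the times lost its call with the processed signal (-2.11). That of IL22 gained a call with quantile normalization (-1.75), normexp (-1.46), without dim probes (-1.65), with the rabbit as a replicate block (-1.65), and in probes 1 (-1.74) and 2 (-2.12) alone. The fall of IL22 from T4 to T24 in PMA-Ionomycin lost its call with the processed signal (-2.07), the trended and robust prior (-1.21), and probes 3 (-1.11), 4 (-1.02) and 5 (-1.17) alone, and lay between -1.01 and -1.40 with a rabbit left out. IL22RA2 at T24 of PMA-Ionomycin gained a call with the deposited table (-0.82) and the replicate block (-0.68), and was -0.29 to -0.88 with a rabbit left out. CCL20 between the times of LPS, under background, gained a call with the processed signal (-1.18), the replicate block (-0.44), the slide block (-0.49) and without rabbit 5 (-0.54), and lay between -0.36 and -0.54 with a rabbit left out. The replicate block changed no other call of the 4 genes. The cause of these changes was not tested. The dim-probe filter kept 3 of 4 members, so IL22RA2 has no value there. Genes DE after LPS numbered 0 to 1231 at T4 (296 in the model reported) and 47 to 748 at T24 (352), and for LPS by time 7 to 1660 (562). Levels under background limit the statements on the 4 genes after LPS and those on IL22RA2.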
